A study of Papio cynocephalus with 12 samples.

Results

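The 10 human transcripts described here encode the chains of the MHC class II proteins and of the proteins that load them. They were chosen by RefSeq accession: NM_019111 (HLA-DRA), NM_002124 (HLA-DRB1), NM_033554 (HLA-DPA1), NM_002121 (HLA-DPB1), NM_002122 (HLA-DQA1), NM_002123 (HLA-DQB1), NM_006120 (HLA-DMA), NM_002118 (HLA-DMB), NM_002119 (HLA-DOA) and NM_002120 (HLA-DOB). All 10 were found among the 40915 different accessions of the count tables. Each had exactly 1 row, so no rows had to be summed. The rows of HLA-DPA1, HLA-DPB1 and HLA-DOA carry a number added to the accession, as do 1330 of the 41970 rows in all. Its meaning is not given in the sources used here.

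The animals were 12 yellow baboons (Papio cynocephalus), adult males bred in a colony, and 1 blood sample of each, taken at baseline before inoculation, was sequenced. The study's methods describe blood in PAXgene tubes that was depleted of globin transcripts, whereas the labels name mononuclear cells. The reads of each animal were mapped to the human reference in 6 ways, with Bowtie2 and Stampy on the transcriptome and with Bowtie2-G, Stampy-G, TopHat2 and GSNAP on the genome, and reads were then counted per transcript. Total counts per column ran from 7249470 to 18911340. Because the 6 columns of an animal come from the same reads, a difference between methods is a difference in assignment and not in the blood. Apart from the 10 genes, the sources used here do not pair accessions with gene names, so marker genes of blood cells, other genes of the class II pathway and the labelled cell type were not examined. Transcript lengths were not available either, and levels of different genes are therefore not ranked against each other.

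MHC class II proteins sit on B cells, monocytes, dendritic cells and other antigen-presenting cells, where they show peptides from engulfed material to CD4 T cells. Each is a pair of an alpha and a beta chain. DR, DP and DQ are the classical presenting molecules, and in human the beta chain of DR and both chains of DQ are highly variable between individuals, whereas the DR alpha chain hardly varies. DM edits peptides inside endosomal compartments, and DO, found mostly in B cells, restrains DM. In human the DR beta and the DQ genes also have close copies beside them, so reads of HLA-DRB1, HLA-DQA1 and HLA-DQB1 could be split among copies and their counts are uncertain.

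Of the 10 genes, 8 had counts in every animal with every method, and 2 were nearly or wholly empty. HLA-DQB1, the beta chain of DQ, had 0 counts in all 72 columns. A count of 0 over the 12 animals of a table allows up to 3 counts, or 0.00723 counts per 1000000 read pairs (counting error only). This limit holds for reads assigned to the transcript and not for RNA of the gene. A read that overlaps several features alike was counted for none of them, and whether such reads were present was not tested. HLA-DPA1, the alpha chain of DP, had 0 counts with TopHat2, 1 with Bowtie2, 1 with Stampy, 3 with GSNAP and 10 with Bowtie2-G, each summed over the 12 animals. Stampy-G alone gave HLA-DPA1 counts in every animal, 202 in all, with a lowest count of 2, a median of 9 and a highest of 63. Animals 3, 7 and 11 held the highest of these, at 63, 43 and 30 counts, and the other 9 animals had 18 or fewer. Taking 5 counts as detection, Stampy-G detected HLA-DPA1 in 9 of 12 animals, whereas the other 5 methods detected it in 0. The partner chains were plentiful. HLA-DPB1 had at least 29 counts and HLA-DQA1 at least 216 in every column. Both nearly empty genes failed the filter on low counts in all 6 comparisons of methods below, so that 8 of 10 genes were tested in each.

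**Figure D1:**
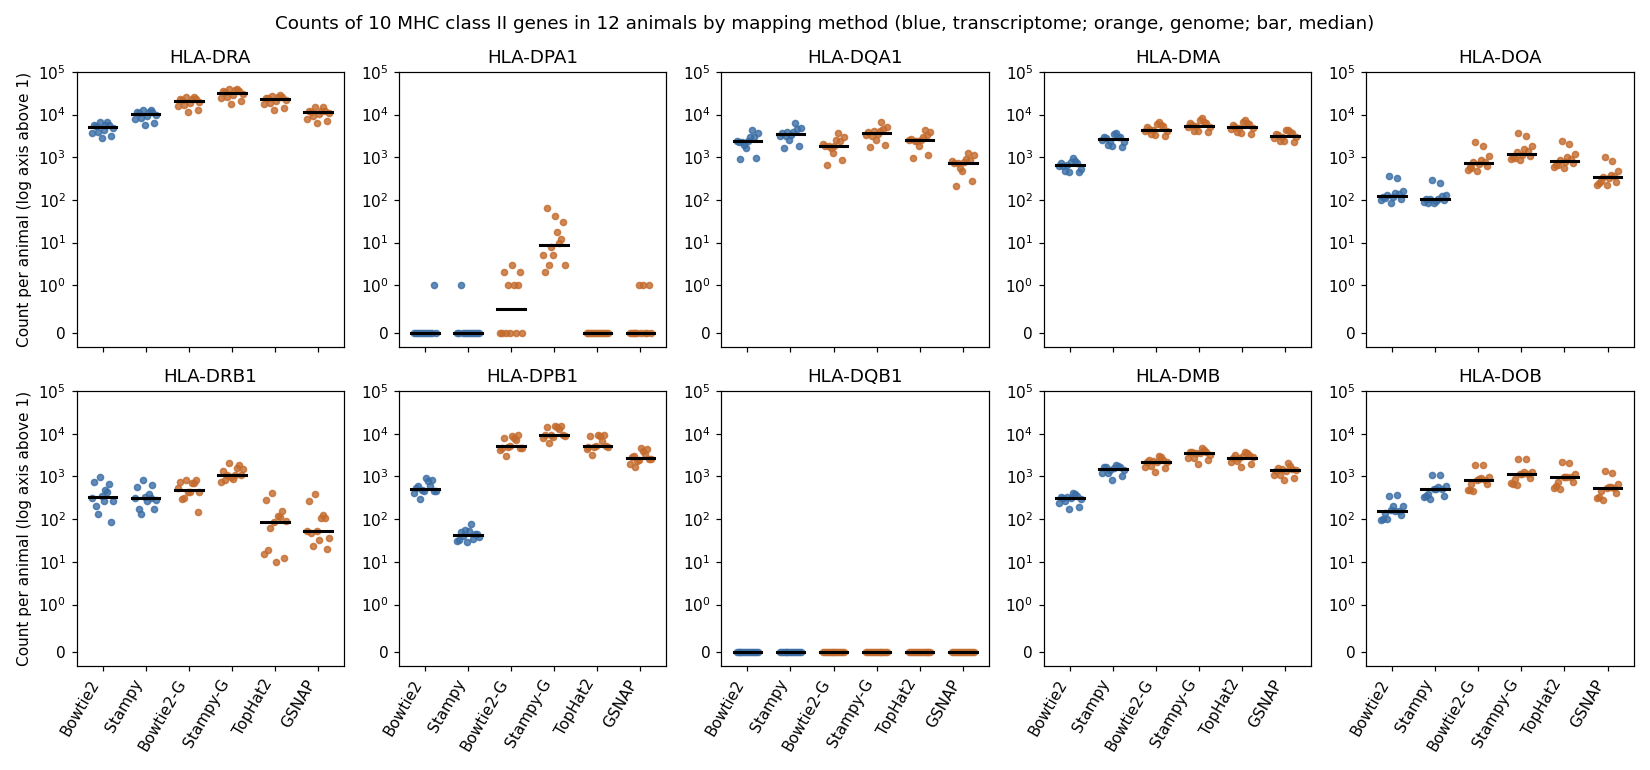
Counts of the 10 genes (vertical axis, logarithmic above 1) with each mapping method (horizontal axis); every point is 1 of 12 animals and the bar is the median. HLA-DQB1 stays at 0 throughout, HLA-DPA1 is above 0 in all 12 animals with Stampy-G alone and has at most 3 counts in any animal with the other methods, and the HLA-DPB1 counts of Stampy (29 to 78) lie below those of every other method.

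HLA-DRA, the common alpha chain of the DR molecules, took between 50.9% (Bowtie2) and 53.5% (Bowtie2-G) of the counts of the 10 genes with each method. With TopHat2 its count ran from 12730 (animal 6) over a median of 22885 to 28561 (animal 9). With Stampy-G it ran from 17751 to 40104 (median 32325), and with GSNAP from 6227 to 14794 (median 11276). On the transcriptome the counts were lower, from 5671 to 13115 (median 10483.5) with Stampy and from 2864 to 6686 (median 5029.5) with Bowtie2. Animal 6 was lowest with every method, and animal 5 or 9 was highest. The mean over animals was 634 ± 174 counts per 1000000 read pairs with TopHat2 and 142 ± 43.1 with Bowtie2 (SD, n = 12 each). As everywhere in bulk blood, fewer cells that express a gene and less of its RNA per cell cannot be told apart.

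The first question was what the choice of reference does to these genes. With the same program, 7 of the 8 tested genes had lower counts on the transcriptome than on the genome with Bowtie2 and all 8 with Stampy. Among all accessions only 7.29% were lower with Bowtie2 against Bowtie2-G and 9.12% with Stampy against Stampy-G, while 70.1% and 64.6% were higher. TMM scaling, which takes the library size from the counts of each table in place of its read pairs, split all accessions into 34.8% higher and 48.2% lower with Bowtie2 and 33.6% and 54.2% with Stampy. Calls here and below use edgeR's quasi-likelihood test paired by animal, at an adjusted p under 0.05 over all accessions tested. At least 2-fold higher was none with either program, beside 23.1% and 25.6% of all accessions. At least 2-fold lower were 6 genes with Bowtie2 and 7 with Stampy, beside 3.25% and 3.55% of all accessions (4.11% and 4.85% with TMM scaling). The median log2 difference of the 8 genes was -2.44 with Bowtie2 and -1.43 with Stampy, beside 0.22 and 0.19 over all accessions tested. HLA-DQA1, the alpha chain of DQ, was the exception with Bowtie2. It was 1.24 times higher on the transcriptome (log2 0.31 ± 0.018 SE, adjusted p = 9.5e-10 with edgeR), a difference that vanished with TMM scaling (log2 -0.0055).

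HLA-DPB1, the beta chain of DP, differed most between the references. With Stampy-G its count was 6055 to 15096 (median 9462), and with Stampy on the transcriptome it was 29 to 78 (median 43.5). The ranges are far apart, and the transcriptome count was 0.00407 times the genome count (log2 -7.94 ± 0.046 SE, adjusted p = 1.4e-19 with edgeR). This put HLA-DPB1 at percentile 0.0447 of the differences of 13416 accessions. The difference was smaller with Bowtie2, which gave 301 to 897 counts (median 508) on the transcriptome and 2964 to 9313 (median 5059) on the genome. The ratio was 0.0943 (log2 -3.41 ± 0.035 SE, adjusted p = 5.9e-18 with edgeR). Every animal had the lower count on the transcriptome with both programs.

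The peptide-editing genes fell on the transcriptome too. HLA-DMA had 446 to 939 counts (median 644) with Bowtie2 and 3106 to 6690 (median 4425) with Bowtie2-G, without overlap. Its log2 difference was -2.84 ± 0.017 SE and that of HLA-DMB -2.86 ± 0.019 SE, so that the transcriptome gave 0.140 and 0.138 times the genome count. With Stampy both differences were smaller, at log2 -1.11 ± 0.016 SE for HLA-DMA and -1.22 ± 0.017 SE for HLA-DMB. Of the DO chains, HLA-DOA had 83 to 286 counts (median 105.5) with Stampy and 840 to 3761 (median 1207) with Stampy-G, a log2 difference of -3.60 ± 0.039 SE. HLA-DOB, its partner, had 290 to 1112 counts (median 511) with Stampy and 623 to 2568 (median 1146) with Stampy-G, a log2 difference of -1.17 ± 0.021 SE. With Bowtie2 the DO chains moved more evenly, at -2.52 ± 0.028 SE for HLA-DOA and -2.36 ± 0.030 SE for HLA-DOB. All 12 animals were lower on the transcriptome for each of these 4 genes with both programs.

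HLA-DRA on the transcriptome had 0.246 times its genome count with Bowtie2 (log2 -2.03 ± 0.012 SE) and 0.321 times with Stampy (log2 -1.64 ± 0.0066 SE), in 12 of 12 animals each. HLA-DRB1, the main DR beta chain in human, had 86 to 967 counts (median 331) with Bowtie2 and 150 to 833 (median 481.5) with Bowtie2-G. These ranges overlap almost wholly. The difference was log2 -0.39 ± 0.10 SE (adjusted p = 0.0035 with edgeR) and was lower on the transcriptome in 10 of 12 animals. With Stampy HLA-DRB1 had 134 to 842 counts (median 307) and with Stampy-G 753 to 2105 (median 1090), a log2 difference of -1.78 ± 0.14 SE (adjusted p = 3e-08) in 12 of 12 animals. HLA-DQA1 was nearly equal between Stampy (1686 to 6505, median 3499) and Stampy-G (1753 to 6800, median 3643.5), although the small difference of log2 -0.06 ± 0.0078 SE had the same direction in all 12 animals.

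**Figure D2:**
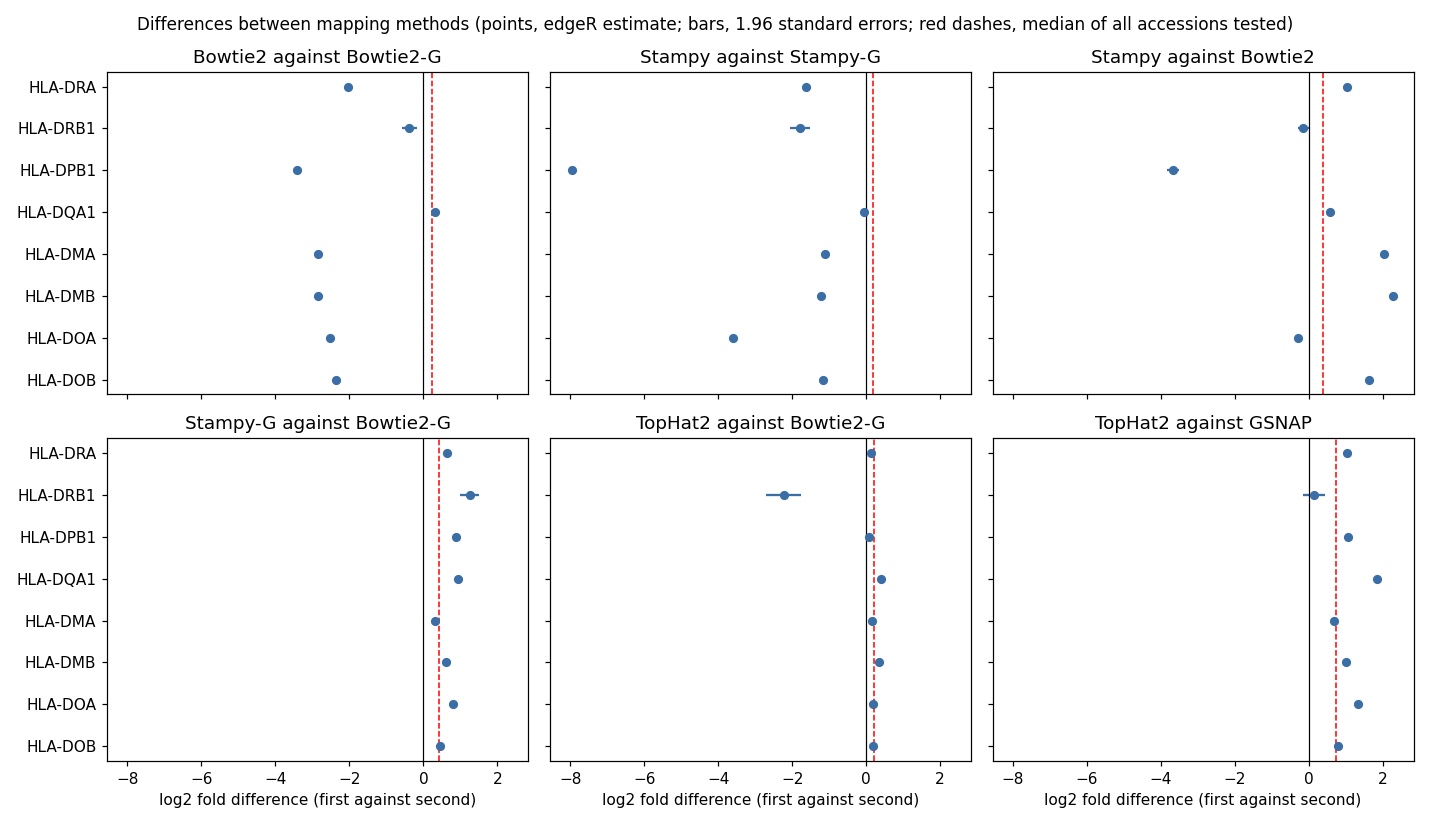
Log2 fold difference in counts (horizontal axis) of the 8 tested genes (vertical axis) in 6 comparisons of methods; points are edgeR estimates, bars 95% intervals from the standard errors, the black line is 0 and the red dashes the median of all accessions tested. The genes lie left of the dashes by 2 or more log2 units in most rows of the Bowtie2 against Bowtie2-G panel, and HLA-DPB1 reaches -7.94 with Stampy against Stampy-G; with TMM scaling the points of the TopHat2 against Bowtie2-G panel that lie just above 0 move below it for 5 genes.

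Next, the programs were compared on the same reference. On the transcriptome, Stampy gave higher counts than Bowtie2 for 5 of the 8 genes, lower counts for 2, and no call for HLA-DRB1. Over all accessions 82.6% were higher and 3.36% lower (33.3% and 48.3% with TMM scaling). HLA-DMB (log2 2.26 ± 0.024 SE), HLA-DMA (2.02 ± 0.020 SE) and HLA-DOB (1.63 ± 0.037 SE) rose most, followed by HLA-DRA (1.03 ± 0.012 SE). HLA-DQA1 was 1.49 times higher, a call that was lost with TMM scaling (log2 0.11, adjusted p = 0.0735 with edgeR). These 5 were higher in 12 of 12 animals. HLA-DPB1 went the other way, to 0.0785 times the Bowtie2 count (log2 -3.67 ± 0.085 SE, adjusted p = 2.2e-14 with edgeR), and the counts of the programs did not overlap. At least 2-fold lower with Stampy was HLA-DPB1 alone, beside 0.749% of all accessions, and at least 2-fold higher were 4 genes, beside 19.1%. With TMM scaling HLA-DRA fell to 1.47 times, which left 3 genes at least 2-fold higher, beside 11.9% of accessions. HLA-DOA was lower by little (log2 -0.29 ± 0.035 SE, adjusted p = 2.9e-06), in 12 of 12 animals. HLA-DRB1 differed by log2 -0.15 ± 0.074 SE (adjusted p = 0.0698 with edgeR), with Stampy lower in 8 animals and higher in 3. Its difference passed the threshold without animals 3 and 11 (log2 -0.18, adjusted p = 0.0071) and with TMM scaling (log2 -0.62).

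On the genome, Stampy-G exceeded Bowtie2-G for all 8 genes, where 89.7% of all accessions were higher, although with TMM scaling HLA-DMA turned lower (log2 -0.14) and HLA-DOB was no longer called (log2 0.0043). None of the 8 was lower, beside 1.86% of all accessions (0.289% by 2-fold or more). With TMM scaling 35.9% of all accessions were higher and 37.4% lower. The differences ran from log2 0.30 ± 0.0047 SE for HLA-DMA to 1.25 ± 0.12 SE for HLA-DRB1, beside a median of 0.42 over all accessions tested. HLA-DRB1, at 2.37 times, was the only one higher by 2-fold or more, as were 13.6% of accessions, and with TMM scaling 0 of the 8 genes and 6.34% of accessions were. In single animals its ratio ran from 1.44 in animal 1 to 7.04 in animal 11, where Bowtie2-G counted 150 and Stampy-G 1056. HLA-DPB1 was 1.83 times higher with Stampy-G (log2 0.87 ± 0.031 SE), the opposite direction to the transcriptome.

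The effect of the program thus depended on the reference, and this was tested as the interaction of program and reference over 13898 accessions in 1 fit, added after the counts were seen. Beside a term for the animal, the fit treated the mappings of the same reads as separate, so its standard errors and p-values can be too small. All 8 genes passed the threshold, as did 47.3% of all accessions, and 4 of the 8 were negative, as were 30.7% of all accessions. The interaction, the log2 difference of Stampy against Bowtie2 on the transcriptome minus that on the genome, was -4.55 ± 0.11 SE for HLA-DPB1 (adjusted p = 1.6e-29 with edgeR). It was also negative for HLA-DRB1 (-1.41 ± 0.22 SE), HLA-DOA (-1.08 ± 0.054 SE) and HLA-DQA1 (-0.36 ± 0.065 SE). The DM genes and HLA-DOB had positive values, at 1.72 ± 0.024 SE for HLA-DMA, 1.64 ± 0.033 SE for HLA-DMB and 1.18 ± 0.040 SE for HLA-DOB, and HLA-DRA had 0.39 ± 0.015 SE. The paired chains of DO and those of DR therefore went in opposite directions, while those of DM went together.

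TopHat2, a spliced aligner, was then set against the unspliced Bowtie2-G on the genome. By the paper, TopHat2 also maps to the transcriptome first, favours annotated genes and runs Bowtie2 with another seed length and interval. The effect of splicing cannot be told apart from these. TopHat2 gave higher counts than Bowtie2-G for 7 of the 8 genes and lower counts for HLA-DRB1, but with TMM scaling only 2 were higher and 6 lower. Over all accessions 70.6% were higher and 8.1% lower (34.1% and 45.2% with TMM scaling). The 7 differences were small, from log2 0.07 ± 0.022 SE for HLA-DPB1 to 0.41 ± 0.026 SE for HLA-DQA1, and lay around the median of 0.20 over all accessions tested. None reached 2-fold higher, as 19.7% of accessions did. HLA-DPB1 was higher in 9 of 12 animals and the other 6 genes in 12 of 12. Relative to that median HLA-DRA (0.14 ± 0.0051 SE) and HLA-DMA (0.16 ± 0.0034 SE) were slightly lower and HLA-DMB (0.34 ± 0.012 SE) higher.

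HLA-DRB1 stood apart in this comparison. With TopHat2 its count was 10 to 411 (median 87.5), against 150 to 833 (median 481.5) with Bowtie2-G, and TopHat2 was lower in 12 of 12 animals. The difference was log2 -2.23 ± 0.24 SE (adjusted p = 6.2e-07 with edgeR), at percentile 1.63 of all accessions, and 3.46% of accessions were lower by 2-fold or more. The size of the difference varied between animals. In animal 5 TopHat2 counted 411 and Bowtie2-G 833, a ratio of 0.493. In animal 7 they counted 10 and 428, a ratio of 0.0234. Single reads were not followed between methods. Animals 1, 3 and 11 also had fewer than 20 counts with TopHat2, at 15, 19 and 12. The SD over animals of the log2 difference was 1.34 for HLA-DRB1, larger than for 99.97% of 5788 accessions, those averaging 100 counts or more in each table, whose median was 0.0400. For HLA-DRA the same SD was 0.0184 and for HLA-DMA 0.0108. HLA-DRB1 was among the 5788 accessions through its high animals, since animal 5 held 411 of its 1377 counts with TopHat2. Counts as low as 10 carry a large counting error, which limits what its rank means here. HLA-DRB1 also ranked high where its counts were larger. For Stampy-G against Bowtie2-G, with lowest counts of 753 and 150, the SD was 0.611, larger than for 99.97% of 5916 accessions. Its lowest rank in the 6 comparisons was for Bowtie2 against Bowtie2-G (SD 0.380, larger than for 99.67% of 5797 accessions).

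**Figure D3:**
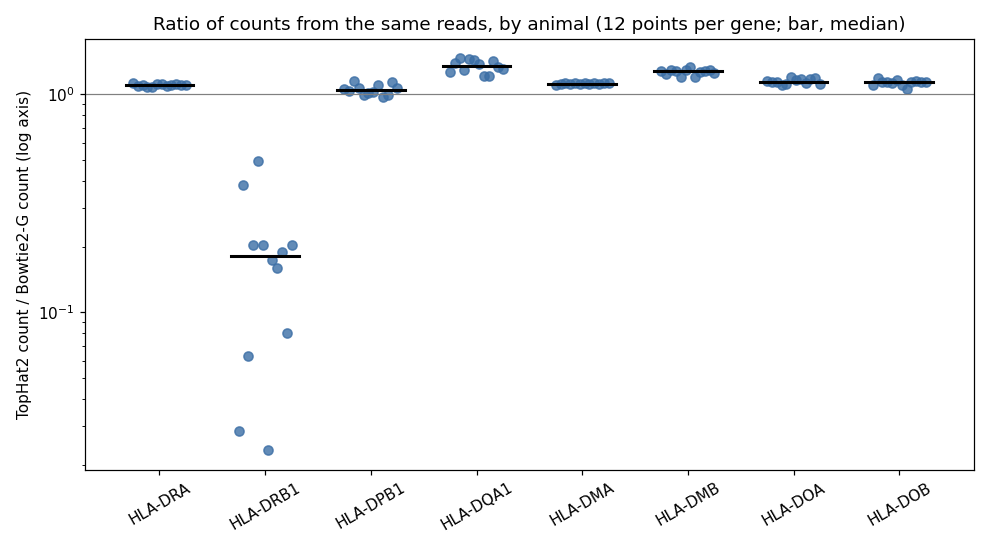
Ratio of the TopHat2 count to the Bowtie2-G count (vertical axis, logarithmic) for each of the 8 tested genes (horizontal axis); every point is 1 of 12 animals, the bar is the median and the grey line marks equal counts. The 12 points of HLA-DRB1 spread from 0.0234 to 0.493, whereas those of HLA-DRA lie between 1.08 and 1.12.

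The spliced aligners were compared with each other last. TopHat2 gave higher counts than GSNAP for 7 of the 8 genes (93.2% of all accessions were higher), among which HLA-DMA turned lower with TMM scaling (log2 -0.04, with 41.6% of all accessions higher and 41.1% lower). At least 2-fold higher were 4 genes, HLA-DQA1 (3.57 times), HLA-DOA (2.53 times), HLA-DPB1 (2.10 times) and HLA-DRA (2.03 times), beside 33.3% of all accessions. With TMM scaling these were 2.17, 1.54, 1.27 and 1.23 times higher, so that 1 gene reached 2-fold, beside 18.3% of accessions. None was lower, beside 3.24% of all accessions (1.88% by 2-fold or more), but 2 were lower with TMM scaling, HLA-DMA and HLA-DRB1. HLA-DQA1 had 962 to 4447 counts with TopHat2 (median 2534.5), and GSNAP gave it 216 to 1289 (median 746.5). HLA-DRB1 showed no call, with a log2 difference of 0.14 ± 0.16 SE (adjusted p = 0.39 with edgeR), TopHat2 higher in 7 animals and lower in 5. GSNAP counted it from 20 to 382 times (median 52.5). In animal 1 the TopHat2 count was 0.288 times the GSNAP count and in animal 4 it was 2.70 times, so these methods disagreed on HLA-DRB1 in both directions. With TMM scaling the log2 difference was -0.57 and passed the threshold (adjusted p = 0.0029 with edgeR), and with DESeq2 it was -0.05 (adjusted p = 0.844).

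Because the alpha and beta chains of a molecule are made from separate genes, the ratio of their counts was followed from method to method. The ratio is free of library size, and its change between methods is free of transcript length. For DR, DM and DO, 15 of 18 changes passed an exact permutation test in which the 12 animals were kept as pairs (two-sided, adjusted by Benjamini-Hochberg over 30 ratios). The share of other pairs of accessions that would pass was not computed, so this count cannot be called particular to these chains. Of single accessions, 73.7% to 96.4% were called in either direction by edgeR, depending on the comparison. The 12 ratios of DP and DQ, which have an empty partner, were left out of the text. The median count of HLA-DRA per count of HLA-DRB1 was 13.4 with Bowtie2, 24.5 with Stampy-G, 32.04 with Stampy, 35.0 with Bowtie2-G, 135 with GSNAP and 249 with TopHat2. With TopHat2 it ran from 67.4 in animal 5 to 2059 in animal 7. TopHat2 exceeded Bowtie2-G in 12 of 12 animals, by log2 3.04 ± 1.35 (SD over animals, exact p = 0.000488, the smallest that 12 pairs allow, adjusted p = 0.000666). Stampy and Stampy-G, in contrast, differed by log2 0.26 ± 0.59 (SD), with 6 animals in each direction (exact p = 0.152, adjusted p = 0.163).

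The DM ratio was the steadiest of the 3. The median count of HLA-DMA per count of HLA-DMB lay between 1.68 with Stampy-G and 2.36 with GSNAP. Its largest change was that of TopHat2 against GSNAP, log2 -0.33 ± 0.11 (SD), in 12 of 12 animals (exact p = 0.000488, adjusted p = 0.000666), and Bowtie2 against Bowtie2-G gave log2 0.02 ± 0.10 (exact p = 0.519, adjusted p = 0.519). For DO the median count of HLA-DOA per count of HLA-DOB was 0.232 with Stampy and between 0.687 and 1.23 with the other methods. Stampy differed from Stampy-G by log2 -2.39 ± 0.19 (SD), in 12 of 12 animals (exact p = 0.000488, adjusted p = 0.000666). TopHat2 and Bowtie2-G gave nearly the same DO ratio, with a difference of log2 0.02 ± 0.06 (exact p = 0.308, adjusted p = 0.318). Animal 6 had the lowest DO ratio and animal 4 the highest with all 6 methods.

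The genes also differed in how much they varied between animals. Spread is given as the SD over the 12 animals of log2 counts per 1000000 read pairs, and was set against the accessions averaging 100 counts or more in the same table. HLA-DRB1 had the widest spread of the 8 genes with Bowtie2, Stampy, Bowtie2-G, TopHat2 and GSNAP. It was 1.82 with TopHat2, above 99.9% of 6697 accessions, whose median was 0.360, but 0.516 with Stampy-G, above 82.2% of 6609 accessions. With Bowtie2, Stampy and Bowtie2-G it was 1.06, 0.834 and 0.763, above 99.3%, 97.7% and 96.3% of the accessions of the same table. With TopHat2 and GSNAP, HLA-DRB1 averaged 100 counts only through its high animals, as its medians were 87.5 and 52.5. Counting error in the low animals therefore adds to its spread there. HLA-DOA and HLA-DOB had 0.715 and 0.703 with TopHat2, above 95.7% and 95.5% of accessions. With every method HLA-DMA (0.349 to 0.376), HLA-DMB (0.378 to 0.427) and HLA-DRA (0.425 to 0.457) were among the less variable of the genes. Beside all accessions their spread was not low, as with TopHat2 it was above 49.7%, 56.2% and 68.7% of them.

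The high DO counts came from the same animals. HLA-DOA with TopHat2 was 2460 in animal 5 and 2085 in animal 9, while the other 10 animals had 562 to 1201. HLA-DOB was 2143 and 2116 in those animals and 520 to 1131 in the others. HLA-DQA1 had its own low animals, 962 in animal 3 and 1123 in animal 11 with TopHat2, whereas the next lowest had 1832. In animal 3 HLA-DRB1 (19), HLA-DOA (646) and HLA-DOB (743) were also below their medians, whereas HLA-DRA (23804), HLA-DPB1 (8974), HLA-DMA (5077) and HLA-DMB (3177) were above theirs.

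Correlations across the 12 animals were computed for the 28 pairs of the 8 genes with TopHat2, on log2 counts per 1000000 read pairs. In all, 26 were positive and 5 passed the threshold by Pearson's r (permutation test, 100000 resamples, two-sided, Benjamini-Hochberg over 28 pairs). The median r of the 28 pairs was 0.486. How many pairs of other accessions would be positive or pass was not computed. HLA-DRA and HLA-DMB were the most alike, with r = 0.930 (permutation p = 4e-05, adjusted p = 0.00112) and rho = 0.839 (permutation p = 0.00136, adjusted p = 0.0375), and r = 0.854 without the 2 animals farthest from the median. HLA-DMA and HLA-DMB, the chains of DM, followed with r = 0.888 (permutation p = 2e-04, adjusted p = 0.0028) and rho = 0.804 (permutation p = 0.00268, adjusted p = 0.0375), and r = 0.880 without the 2 farthest animals. HLA-DOA and HLA-DOB had r = 0.877 (permutation p = 0.0007, adjusted p = 0.00653) and rho = 0.741 (permutation p = 0.00811, adjusted p = 0.0757). Their r depended on animals 5 and 9, as it was 0.506 without them (permutation, adjusted p = 0.322). Without these animals rho was 0.552 (permutation, adjusted p = 0.314). With all animals, rho of this pair passed in the GSNAP, Bowtie2-G and Stampy-G tables (0.790, 0.762 and 0.699, permutation, adjusted p = 0.0188, 0.0494 and 0.0466). It did not pass in the Bowtie2 and Stampy tables (permutation, adjusted p = 0.0830 and 0.122). The other 2 pairs past the threshold by r were HLA-DRA with HLA-DMA (r = 0.799, permutation, adjusted p = 0.0164) and HLA-DPB1 with HLA-DMA (r = 0.751, permutation, adjusted p = 0.0311). By rho 2 of the 28 pairs passed, and neither of these did (permutation, adjusted p = 0.107 for both). With TMM scaling 4 pairs passed by r, and HLA-DRA with HLA-DMA did not (r = 0.612, permutation, adjusted p = 0.165). Without animals 5 and 9 HLA-DPB1 with HLA-DMA did not (r = 0.766, permutation, adjusted p = 0.106).

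HLA-DRA and HLA-DRB1, the chains of DR, had r = 0.571 with TopHat2 (permutation p = 0.0555, adjusted p = 0.137) and rho = 0.643 (permutation p = 0.0283, adjusted p = 0.107), and r = 0.681 without the 2 farthest animals. In the Bowtie2, Bowtie2-G, Stampy-G and GSNAP tables r was 0.677 to 0.732 and passed the threshold (permutation, adjusted p = 0.0449 or lower), and in the Stampy table it was 0.577 (permutation, adjusted p = 0.119). By rho the GSNAP table alone passed (permutation, adjusted p = 0.0188). In the TopHat2 table r was 0.386 with TMM scaling (permutation, adjusted p = 0.470) and 0.418 without animals 5 and 9 (permutation, adjusted p = 0.464). The lowest r of any pair was -0.061, between HLA-DRB1 and HLA-DPB1 (permutation p = 0.85, adjusted p = 0.882, rho = 0.056, permutation p = 0.868, adjusted p = 0.9).

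These values need their background, because levels per read pair move together in these animals. It was computed for HLA-DRA alone, so pairs without HLA-DRA have none. The median r of HLA-DRA with 6696 accessions of at least 100 mean counts was 0.517. Against this, HLA-DMB ranked second, HLA-DMA ranked 484 and HLA-DOA 1559, while HLA-DRB1 (2860), HLA-DOB (2969), HLA-DPB1 (3592) and HLA-DQA1 (3872) ranked near the middle. With TMM scaling the median r was 0.0102, HLA-DMB again ranked second at r = 0.855, HLA-DMA ranked 222 at 0.612, and the remaining 5 genes ranked from 631 to 1401. Per read pair, the 5 accessions outside the class II genes most like HLA-DRA had r of 0.917 to 0.935, and with TMM scaling the 5 most alike had 0.814 to 0.871. They are not named in the sources used here.

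**Figure D4:**
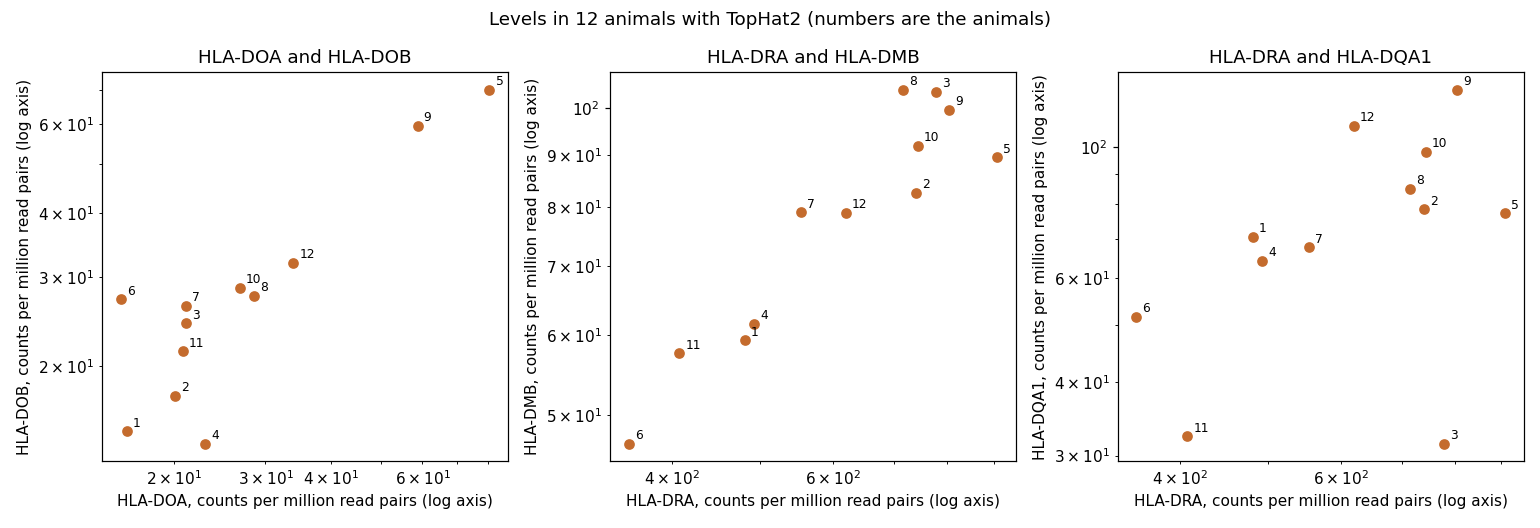
TopHat2 levels in counts per 1000000 read pairs (both axes logarithmic) for HLA-DOA and HLA-DOB, HLA-DRA and HLA-DMB, and HLA-DRA and HLA-DQA1; each point is 1 of 12 animals and is labelled with its number. Animals 5 and 9 stand apart for the DO genes (r = 0.877 with them and 0.506 without), HLA-DRA and HLA-DMB lie along 1 line (r = 0.930), and animals 3 and 11 have the lowest HLA-DQA1.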

How the data were processed

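The 6 tables hold whole-number counts per transcript for 12 baseline samples. Per the labels' processing notes and the paper's methods, the authors trimmed reads with Trimmomatic 0.25, mapped them at default settings to hg19 with TopHat2 2.0.7, GSNAP, Stampy and Bowtie2 2.0.6, and counted primary alignments with htseq-count (HTSeq 0.5.4, intersection-nonempty mode). The deposited counts are not normalized. In that mode a read that overlaps several features alike is counted for none of them. The strand setting is not given in the sources used here.

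Columns were matched to animals by number, and the study's read pairs after quality control served as library size. For 6 pairs of methods, edgeR 4.0.16 (glmQLFit, glmQLFTest, in R 4.3.3) was run on the counts, with the animal as a block, filterByExpr and Benjamini-Hochberg adjustment over all accessions. The block follows from the design, since an animal's reads are the same in both tables. Standard errors were derived from the F statistic and are approximate. Animals are separate individuals, but p-values measure how evenly 2 mappings of the same reads differ. Chain ratios used an added count of 0.5 and all 4096 sign exchanges. Correlations of HLA-DPA1 and HLA-DQB1 were not computed, which left 28 of the planned pairs. The labels give no batch. The edgeR fit was checked on simulated counts that were drawn separately for the 2 columns of an animal. Such counts share no reads, so the check cannot show how well the test holds for mappings of the same reads. Alternatives were TMM library sizes, DESeq2 1.42.0, no filter, the highest row per accession, no block, an added count of 5, the other tables and detection at 10 counts. Leaving out animals 3 and 11, or 5 and 9, was added after seeing the data. All 10 genes were to be named by rule, and the genes and tests were chosen with earlier results of these data known. Python 3.11.15, numpy 2.4.6 and scipy 1.17.1 were used. No sequences are shown, as no reference sequence was used here.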

Additional observations from a re-analysis of the deposited data

Results flagged for a closer look

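The difference between Stampy and Bowtie2 was not the same on the transcriptome and on the genome for 8 of the 10 genes, by the edgeR test of the interaction added after the counts were seen, which 47.3% of all accessions also passed. On the log2 scale, transcriptome minus genome, it was -4.55 for HLA-DPB1, -1.41 for HLA-DRB1, -1.08 for HLA-DOA, -0.36 for HLA-DQA1, 0.39 for HLA-DRA, 1.18 for HLA-DOB, 1.64 for HLA-DMB and 1.72 for HLA-DMA. HLA-DPB1 and HLA-DOA were lower with Stampy on the transcriptome and higher with Stampy-G on the genome in all 12 animals. What sets these differences was not tested.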

How the results depend on the processing

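Of the 48 log2 differences of single genes, 48 kept direction and side of the threshold without the filter on low counts and 48 with the highest row per accession, and 47 with DESeq2, the exception being HLA-DRB1 for TopHat2 against GSNAP (log2 -0.053, also -0.57 with TMM). Scaling by TMM library size moved the median of all accessions to between -0.20 and -0.0016 and turned 9 differences. These were HLA-DQA1 for Bowtie2 against Bowtie2-G (-0.0055), HLA-DMA for Stampy-G against Bowtie2-G (-0.14) and TopHat2 against GSNAP (-0.038), HLA-DRB1 as given, and, for TopHat2 against Bowtie2-G, HLA-DRA (-0.14), HLA-DPB1 (-0.21), HLA-DMA (-0.12), HLA-DOA (-0.091) and HLA-DOB (-0.10). Counts of genes moved with it: for TopHat2 against Bowtie2-G 2 were higher and 6 lower, for Bowtie2 against Bowtie2-G 0 were higher, for Stampy against Bowtie2 4 were higher, 3 lower and 3 2-fold higher, for Stampy-G against Bowtie2-G 1 was lower and 0 were 2-fold higher, and for TopHat2 against GSNAP 2 were lower and 1 was 2-fold higher. Without the filter, 2 genes were 2-fold higher with Stampy-G than with Bowtie2-G, HLA-DRB1 and HLA-DPA1. The fit with no replicate block, which ignores that an animal's reads are the same in both tables, left 35 of 48 results as they were. It called 0 genes higher for Bowtie2 against Bowtie2-G, 0 higher for TopHat2 against Bowtie2-G and 1 lower for Stampy against Bowtie2. No share over pairs of other accessions was computed for the correlations. Pairs of genes correlated across animals numbered 8 in the Bowtie2 table, 8 in the Bowtie2-G table, 12 in the Stampy-G table, 3 without animals 5 and 9 and 4 with TMM scaling, beside 5 with TopHat2. The cause of these changes was not tested. HLA-DQB1 had no counts to test, and HLA-DPA1 was tested only without the filter.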
